A study of Mus musculus with 24 samples.

Results

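Homeostatic microglia marker genes are genes that resting microglia of the mouse brain express at high level and that other macrophages express at low level or not at all. The set described here holds 9 genes, P2ry12, P2ry13, Tmem119, Fcrls, Olfml3, Gpr34, Siglech, Slc2a5 and Sparc. They were taken by symbol, through the Ensembl gene IDs of the count table, and make up 9 of its 47643 genes. All 9 passed the filter on low counts. Siglech and Slc2a5 passed only through the groups in which they had more counts, so they are given mainly as counts. Tmem119, with 46 counts at iPSC day 0 and 2 at BM day 0, passed only through its co-cultured groups.

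The study sequenced RNA from mouse macrophages of 2 sources, grown from induced pluripotent stem cells (iPSC) or from bone marrow (BM). For each source, macrophages kept for 3, 6 and 12 days in co-culture were set beside day 0 macrophages that had not been co-cultured, with n = 3 independent replicates in each of the 8 groups. The labels do not name the cells of the co-culture, the mouse strain or the iPSC line. Each change from day 0 covers elapsed time together with co-culture, and these cannot be told apart.

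Microglia are the macrophages of the brain parenchyma. In mice their homeostatic genes depend on signals of the brain, among them TGF-beta, and are lost when microglia are taken into culture or become inflamed. PU.1, IRF8, SMAD proteins and SALL1 are known regulators of the microglial programme. The genes of this set encode receptors for nucleotides and lipids (P2ry12, P2ry13, Gpr34), surface proteins (Tmem119, Fcrls, Siglech), a sugar transporter (Slc2a5) and secreted proteins (Olfml3, Sparc).

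Library totals ran from 5839316 to 11805478 counts. Levels are in CPM, read counts relative to the size of the library, scaled by the TMM method, and a fold change is the log2 ratio from the edgeR fit with its standard error (SE). Adjusted p-values come from edgeR's quasi-likelihood test with Benjamini-Hochberg adjustment over 15000 genes, and "rose", "fell", "higher" and "lower" are kept for adjusted p below 0.05. The macrophage label was checked against 2 defining genes, and both were present in every library. Csf1r, the receptor for the macrophage growth factor CSF1, had 1015 to 5167 CPM, and Adgre1, which encodes F4/80, had 653 to 3223 CPM. Genes of other brain cells were also counted in co-culture. Gfap of astrocytes had 41.7 to 44.6 CPM in iPSC day 12 libraries, 15.5 to 17.6 CPM in BM day 12 libraries and at most 0.348 CPM at day 0. Tubb3 of neurons had at most 15.9 CPM in any library. In such bulk RNA, a change in the number of cells of a type and a change in RNA per cell cannot be told apart.

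P2ry12 and P2ry13 encode neighbouring ADP receptors on chromosome 3, and P2ry12 is the receptor through which microglial processes move towards injured tissue. In GRCm38 (mm10) P2ry12 (ENSMUSG00000036353.13) runs from 59216272 to 59262871 and P2ry13 (ENSMUSG00000036362.2) from 59207892 to 59210882, both on the minus strand. Both lie inside the span of Med12l on the opposite strand, and P2ry12 shares 9 exonic bases with it. Both promoters are shown because the 2 genes lie side by side and their levels moved closely together. Each is the RefSeq window (GRCm38.p6) of 250 bases before to 50 after the start site, written 5′ to 3′ on the gene's strand. Capitals mark a match to GAGGAA, the core bound by PU.1.
P2ry12: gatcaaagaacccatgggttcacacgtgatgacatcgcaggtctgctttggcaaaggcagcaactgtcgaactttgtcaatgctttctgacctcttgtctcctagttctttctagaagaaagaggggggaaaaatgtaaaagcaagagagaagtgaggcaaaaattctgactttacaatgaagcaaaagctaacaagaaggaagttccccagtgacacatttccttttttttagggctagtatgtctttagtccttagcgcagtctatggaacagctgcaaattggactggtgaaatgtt
P2ry13: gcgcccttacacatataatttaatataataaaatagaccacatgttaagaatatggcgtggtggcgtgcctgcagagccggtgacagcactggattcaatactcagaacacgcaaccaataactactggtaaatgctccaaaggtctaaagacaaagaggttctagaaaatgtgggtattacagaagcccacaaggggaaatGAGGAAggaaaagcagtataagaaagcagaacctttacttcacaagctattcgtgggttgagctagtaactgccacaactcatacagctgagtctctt
The windows are chr3:59262936-59263235 and chr3:59210833-59211132. P2ry13 holds GAGGAA at -48 to -43 from its RefSeq start site, and the P2ry12 window holds none. Of 32851 RefSeq promoters of this length, 28.3% hold GAGGAA on either strand. The RefSeq start of P2ry12 lies 114 bases from the gene start in the count table, and that of P2ry13 lies on it.

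P2ry12 rose in both sources, and it did so by day 3 in iPSC macrophages. In these, its level was 20.5, 19 and 28.5 CPM at day 0, 103, 94.4 and 56 CPM at day 3, 73.4, 110 and 64 CPM at day 6, and 84.1, 59.3 and 123 CPM at day 12. Every co-cultured iPSC library lay above every day 0 library, and the 3 co-cultured groups overlapped one another. In BM macrophages it was 38.4, 24.5 and 38.3 CPM at day 0, 42, 30.1 and 35.6 CPM at day 3, 68.7, 73.4 and 64.9 CPM at day 6, and 97.2, 92.4 and 86.6 CPM at day 12. BM day 3 overlapped day 0, while days 6 and 12 lay apart from both. The log2 change from day 0 in iPSC macrophages was 1.90 ± 0.27 SE at day 3 (adjusted p = 9.6e-06) and 1.97 ± 0.27 at day 12 (adjusted p = 5.3e-06). In BM macrophages it was 0.09 ± 0.26 at day 3 (adjusted p = 0.87), 1.03 ± 0.26 at day 6 (adjusted p = 0.0058) and 1.45 ± 0.26 at day 12 (adjusted p = 0.00017). The day 3 changes of the 2 sources differed by 1.81 ± 0.37 (adjusted p = 0.00076), and the day 12 changes by 0.52, with a 95% interval of -0.23 to 1.27 (adjusted p = 0.36).

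P2ry13 rose in both sources and, unlike P2ry12, was already called at day 3 in BM macrophages. In iPSC macrophages it had 57.7, 51.4 and 57.8 CPM at day 0, 132, 182 and 79.6 CPM at day 3, 132, 255 and 111 CPM at day 6, and 128, 97.3 and 189 CPM at day 12. All co-cultured iPSC libraries were above day 0, with a coefficient of variation of 46.7% at day 6. BM macrophages had 41, 26.3 and 33.7 CPM at day 0, 89, 61 and 76.1 CPM at day 3, 126, 99.5 and 112 CPM at day 6, and 175, 136 and 123 CPM at day 12. The BM groups at days 0, 3 and 6 did not overlap, and day 12 reached down into day 6. In BM macrophages P2ry13 rose by 1.16 ± 0.30 SE at day 3 (adjusted p = 0.0083). Its log2 change at day 12 was 1.31 ± 0.30 SE in iPSC macrophages (adjusted p = 0.0024) and 2.10 ± 0.31 in BM macrophages (adjusted p = 2.1e-05). The difference between these changes was -0.79, with a 95% interval of -1.66 to 0.08 (adjusted p = 0.2).

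P2ry14, a neighbouring receptor gene for UDP-glucose, fell at day 12 in both sources, by 1.55 ± 0.36 log2 units in iPSC macrophages (adjusted p = 0.0026) and by 1.28 ± 0.35 in BM macrophages (adjusted p = 0.0086), from edgeR's fit with Benjamini-Hochberg adjustment. It had 7.58 ± 4.23 CPM at iPSC day 12 and 22.2 ± 9.51 CPM at iPSC day 0 (SD, n = 3 each). At BM day 12 it had 21.3 ± 6.56 CPM, against 51.7 ± 15.7 CPM at BM day 0. Med12l, whose span holds both receptor genes on the other strand, had 2.41 to 20.1 CPM over all 24 libraries. The counts were made without strand, so reads of Med12l and of the receptor genes cannot be told apart where they overlap.

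**Figure D1:**
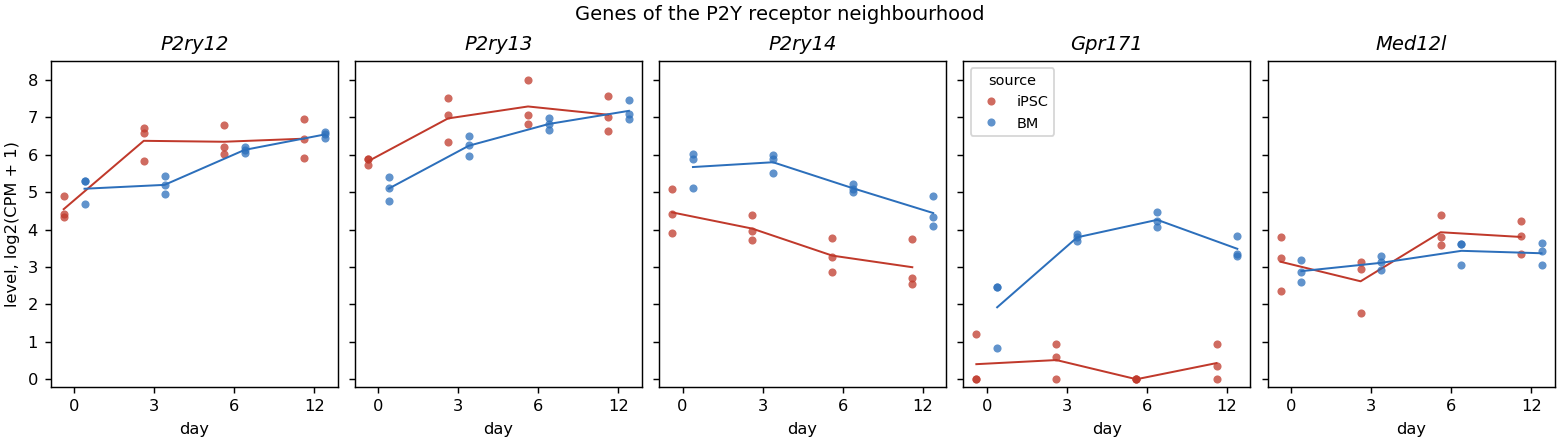
Level on a log2(CPM + 1) scale (vertical) by day (horizontal) of P2ry12, P2ry13 and 3 neighbouring genes, 1 point per library and a line through the group means of the log values, iPSC macrophages in red and BM macrophages in blue. P2ry12 and P2ry13 stand higher at day 12 than at day 0 in both sources, P2ry14 stands lower, and Gpr171 has at most 1.31 CPM in iPSC libraries and 21.1 CPM at its highest in BM libraries.

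Gpr34 encodes a G protein-coupled receptor for lysophosphatidylserine. It is on chromosome X at 13632089 to 13640858, on the plus strand and within the span of Cask on the minus strand (ENSMUSG00000040229.11). It rose in iPSC macrophages at days 3 and 6 and showed no called change in BM macrophages. In iPSC macrophages it had 73.3, 54.1 and 34 CPM at day 0, 512, 567 and 247 CPM at day 3, 268, 478 and 190 CPM at day 6, and 130, 26 and 270 CPM at day 12. All libraries of days 3 and 6 were above day 0, and day 12 replicate 2 was below it. BM macrophages had 145, 157 and 140 CPM at day 0, 83.8, 52.5 and 70.3 CPM at day 3, 189, 160 and 182 CPM at day 6, and 187, 193 and 228 CPM at day 12. The BM day 3 libraries were below all others of that source.

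The log2 change of Gpr34 in iPSC macrophages was 3.04 ± 0.56 SE at day 3 (adjusted p = 0.00055), 2.54 ± 0.55 at day 6 (adjusted p = 0.0019) and 1.40 ± 0.53 at day 12 (adjusted p = 0.06). Without day 12 replicate 2, the day 12 change was 1.91 (adjusted p = 0.0012). In BM macrophages it was -1.10 ± 0.52 at day 3 (adjusted p = 0.17). In a fit to the 12 BM libraries alone, that day 3 change was -1.09 (adjusted p = 7.2e-06). The sources' changes differed by 4.13 ± 0.76 at day 3 (adjusted p = 0.00051) and 2.27 ± 0.74 at day 6 (adjusted p = 0.037). The day 6 difference no longer passed in the fits without iPSC day 0 replicate 2 or 3, iPSC day 6 replicate 2, any BM day 0 replicate or any BM day 6 replicate, with adjusted p from 0.059 to 0.11. It was also lost without scaling factors (adjusted p = 0.06). DESeq2 called the iPSC day 12 change of Gpr34 (1.42, adjusted p = 0.033). The BM day 12 change was 0.46 ± 0.51 (adjusted p = 0.58), and it was called in the fit to the 12 BM libraries alone (0.48, adjusted p = 0.0098). Cask, which overlaps Gpr34 on the other strand, rose at day 12 in both sources. The Cask change was 1.59 ± 0.30 in iPSC macrophages (adjusted p = 0.00036) and 0.81 ± 0.30 in BM macrophages (adjusted p = 0.049). Cask and Gpr34 share no exonic bases, but the counts were made without strand, so unspliced Cask reads over Gpr34 exons cannot be told apart from Gpr34 reads. Cask had 36.2, 55.2 and 20.1 CPM in iPSC day 12 replicates 1, 2 and 3, and Gpr34 was lowest in replicate 2.

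**Figure D2:**
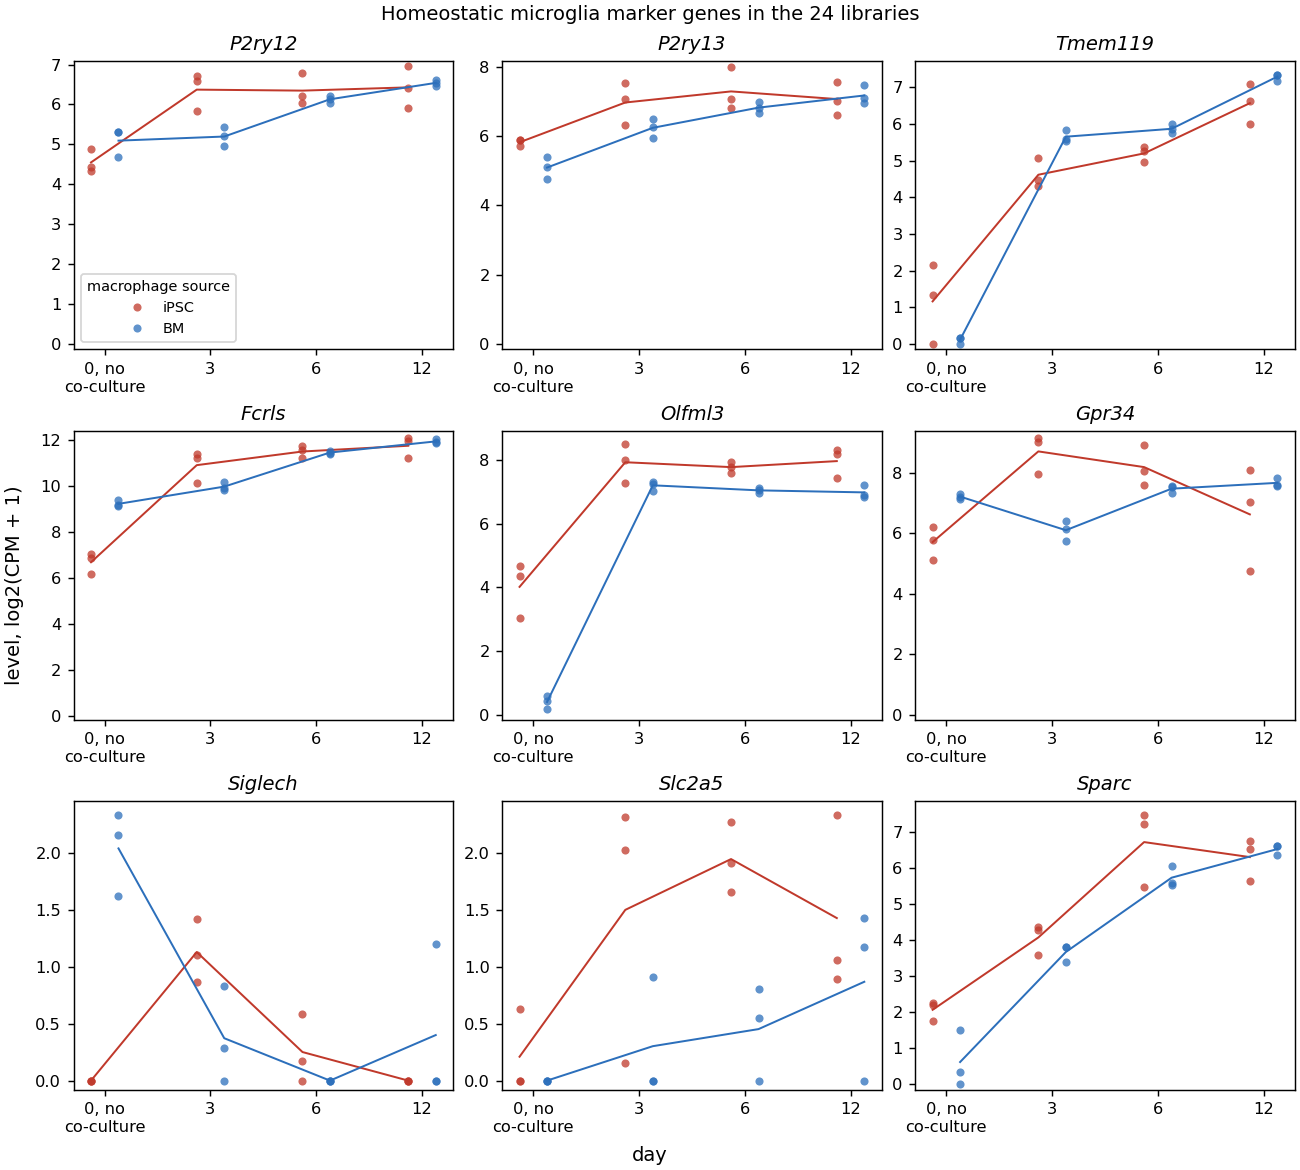
Level of each of the 9 genes on a log2(CPM + 1) scale (vertical) by day (horizontal), 1 point per library and a line through the group means of the log values, iPSC macrophages in red and BM macrophages in blue. Day 0 is without co-culture. Tmem119, Fcrls, Olfml3 and Sparc stand above day 0 at day 12 in every library of both sources, and Siglech has at most 4.06 CPM and Slc2a5 at most 4.05 CPM in any library.

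Tmem119 encodes a membrane protein of unknown biochemical function that separates microglia from other brain macrophages in antibody stains. It lies on chromosome 5 at 113793729 to 113800516 on the minus strand (ENSMUSG00000054675.5). It was near 0 before co-culture and rose in both sources, with a further rise between days 3 and 12. In iPSC macrophages it had 1.53, 0 and 3.43 CPM at day 0, 21.1, 32.9 and 18.7 CPM at day 3, 30, 37.3 and 40.7 CPM at day 6, and 97.6, 135 and 62.8 CPM at day 12. In BM macrophages the 3 day 0 libraries held 1, 0 and 1 counts, and co-culture gave 47.1, 45.8 and 55.7 CPM at day 3, 52.6, 57.7 and 62.5 CPM at day 6, and 162, 144 and 162 CPM at day 12. Neither source showed an overlap between day 0 and a co-cultured group, nor between days 6 and 12.

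The log2 change of Tmem119 in iPSC macrophages was 3.85 ± 0.48 SE at day 3 (adjusted p = 4.6e-06) and 5.88 ± 0.50 at day 12 (adjusted p = 2e-08). Without iPSC day 0 replicate 3, which holds 32 of the 46 day 0 counts, these changes were 4.96 and 6.98. In BM macrophages the ratio of scaled counts to day 0 was 594 at day 3, with an exact 95% interval of 164 to 4910, and 1880 at day 12, with an interval of 519 to 15500. These intervals cover counting error only. Between days 3 and 12 Tmem119 rose by 2.02 ± 0.39 in iPSC macrophages (adjusted p = 0.0019) and by 1.65 ± 0.38 in BM macrophages (adjusted p = 0.0069). The iPSC rise between days 3 and 12 had an adjusted p of 0.08 in a fit to the 12 iPSC libraries alone. Tmem119 passed the filter on low counts only through its co-cultured groups, so its calls against day 0 are in part set by the filter. This limit also holds where its changes from day 0 are compared between sources below.

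Fcrls encodes an Fc receptor-like scavenger protein of rodents and was the most abundant gene of the set per length. It is on chromosome 3 at 87250758 to 87263738 on the minus strand (ENSMUSG00000015852.13). Its promoter is shown because Fcrls had the highest level per length and rose in both sources. The window is chr3:87263475-87263774 (RefSeq, GRCm38.p6), and capitals mark GAGGAA at -144 to -139 and the SMAD element CAGACA at -89 to -84.
Fcrls: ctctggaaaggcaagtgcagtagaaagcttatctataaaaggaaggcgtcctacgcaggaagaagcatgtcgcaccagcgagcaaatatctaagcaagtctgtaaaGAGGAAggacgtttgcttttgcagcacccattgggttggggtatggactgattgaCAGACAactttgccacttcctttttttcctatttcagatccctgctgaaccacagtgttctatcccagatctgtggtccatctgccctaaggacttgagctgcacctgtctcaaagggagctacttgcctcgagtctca
CAGACA is held by 21% of the 32851 RefSeq promoters on either strand. The RefSeq start lies 214 bases from the gene start in the count table.

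Fcrls rose in both sources from unequal day 0 levels to levels that overlapped at day 12. In iPSC macrophages it had 132, 115 and 70.7 CPM at day 0, 2379, 2677 and 1128 CPM at day 3, 3045, 3390 and 2392 CPM at day 6, and 3993, 2378 and 4373 CPM at day 12. In BM macrophages it had 666, 576 and 564 CPM at day 0, 905, 966 and 1178 CPM at day 3, 2719, 2953 and 2803 CPM at day 6, and 3788, 4203 and 3870 CPM at day 12. In BM macrophages no 2 of the 4 groups overlapped, and in iPSC macrophages only day 0 stood apart. The log2 change was 4.28 ± 0.29 SE at day 3 (adjusted p = 7e-10) and 5.08 ± 0.30 at day 12 (adjusted p = 1.6e-10) in iPSC macrophages. The BM change was 0.76 ± 0.26 at day 3 (adjusted p = 0.042) and 2.72 ± 0.27 at day 12 (adjusted p = 1.6e-07). The BM day 3 call was lost when any of its 6 libraries was left out, with adjusted p from 0.054 to 0.16. The sources' changes differed by 3.53 ± 0.37 at day 3 (adjusted p = 3.2e-07), 2.56 ± 0.37 at day 6 (adjusted p = 2.4e-05) and 2.36 ± 0.37 at day 12 (adjusted p = 5.9e-05).

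Siglech encodes a sialic acid-binding lectin that marks microglia and, in mice, also plasmacytoid dendritic cells. It is on chromosome 7 at 55768178 to 55778925 on the plus strand (ENSMUSG00000051504.18). It was the only member called lower in any comparison of a co-cultured group with day 0. In iPSC macrophages the libraries held no count at day 0, 8, 14 and 10 counts at day 3, 4, 1 and 0 counts at day 6, and no count at day 12. BM macrophages held 27, 35 and 16 counts at day 0, 2, 0 and 7 counts at day 3, no count at day 6, and 13, 0 and 0 counts at day 12. The highest level in any library was 4.06 CPM, in a BM day 0 library.

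Siglech passed the filter on low counts only through its higher groups, BM day 0 above all, so a call against such a group is in part set by the filter. This limit holds for every Siglech call given here or counted below. In BM macrophages Siglech at day 6 was at least 26.2-fold lower than at day 0, counted against a floor of 3 counts over the group (adjusted p = 0.017). At day 12 its change was not called (adjusted p = 0.19), and without BM day 12 replicate 1, which holds all 13 counts, it was (adjusted p = 0.021). In iPSC macrophages day 3 was at least 11-fold higher than day 0 (adjusted p = 0.04), and leaving out any of the 6 libraries took that adjusted p above the threshold, to between 0.057 and 0.1. The BM day 6 call was lost without any single BM day 6 library (adjusted p from 0.053 to 0.062). Of 10 genes of plasmacytoid dendritic cells, Ly6d, Klk1 and Spib had no count in the iPSC day 0 and day 12 groups, and Klk1, Pacsin1 and Spib none in the BM day 0 group. The summed level of these 10 genes was 314 to 379 CPM at BM day 0, the group in which Siglech was highest, and 756 to 844 CPM at BM day 12. Bst2 alone had 85 CPM at BM day 0 and 469 CPM at BM day 12 (means). Of the 7 tested, Bst2 and Irf7 rose and Il3ra fell at BM day 12, where Ly6d and Klk1 had no count. The sum therefore does not follow the list as a whole. The part of plasmacytoid dendritic cells in the Siglech values was not tested.

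Slc2a5 encodes GLUT5, a fructose transporter that among brain cells is best known from microglia. It is on chromosome 4 at 150119283 to 150144169 on the plus strand (ENSMUSG00000028976.10). Its counts stayed low in every library. iPSC macrophages held 5, 0 and 0 counts at day 0, 30, 33 and 1 counts at day 3, 22, 31 and 22 counts at day 6, and 9, 9 and 40 counts at day 12. BM macrophages held none at day 0, 8, 0 and 0 counts at day 3, 7, 0 and 4 counts at day 6, and 0, 17 and 14 counts at day 12. Every iPSC day 6 and day 12 library was above every iPSC day 0 library, while at day 3 replicate 3 overlapped day 0. No change over time within a source, and no difference between sources on the same day, passed the threshold. The log2 change in iPSC macrophages was 3.90 ± 1.61 SE at day 6 (adjusted p = 0.081). Without iPSC day 0 replicate 1, which holds all 5 counts of that group, this change was called (adjusted p = 0.038). The scaled counts of BM day 12 were at least 7.97 times those of BM day 0, against the floor of 3 counts. This change was not called (adjusted p = 0.053), and BM day 12 replicate 1 held no count, like the BM day 0 libraries. DESeq2 with Benjamini-Hochberg adjustment called both changes, with an adjusted p of 0.048 for the iPSC change and 0.021 for the BM change. Slc2a5 passed the filter on low counts only through its higher groups, so a call against day 0 is in part set by the filter. DESeq2 was run on the same filtered genes.

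Olfml3 encodes a secreted olfactomedin-like glycoprotein. It is on chromosome 3 at 103722222 to 103738001 on the minus strand (ENSMUSG00000027848.12). Its promoter is shown because Olfml3 rose by day 3 in both sources, and the window (chr3:103737952-103738251, RefSeq, GRCm38.p6) holds none of the 5 motifs searched, so it has no capitals. Besides GAGGAA and CAGACA these were TGAGTCA of AP-1, the SMAD palindrome GTCTAGAC and the repeated GAAA element of IRF factors, searched on both strands, which 5.2%, 0.213% and 3.44% of RefSeq promoters hold. None of these 5 motifs holds another.
Olfml3: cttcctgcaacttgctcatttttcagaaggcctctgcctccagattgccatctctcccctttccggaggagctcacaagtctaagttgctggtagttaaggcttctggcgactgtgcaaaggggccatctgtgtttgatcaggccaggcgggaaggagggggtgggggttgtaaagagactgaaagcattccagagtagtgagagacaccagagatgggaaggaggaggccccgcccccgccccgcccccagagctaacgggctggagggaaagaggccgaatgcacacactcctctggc
The RefSeq start site is the gene start of the count table.

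Olfml3 rose by day 3 in both sources, and no later step was called. In iPSC macrophages it had 19.5, 24.2 and 7.18 CPM at day 0, 256, 357 and 155 CPM at day 3, 220, 244 and 192 CPM at day 6, and 287, 313 and 170 CPM at day 12. In BM macrophages the day 0 libraries held 4, 3 and 1 counts, or 0.13 to 0.516 CPM, and co-culture gave 158, 130 and 152 CPM at day 3, 123, 132 and 138 CPM at day 6, and 147, 113 and 118 CPM at day 12. Day 0 stood apart from the 3 co-cultured groups in each source, and these overlapped one another. The log2 change was 3.92 ± 0.35 SE at day 3 and 3.92 ± 0.35 at day 12 in iPSC macrophages (adjusted p = 3.7e-08 and 3.4e-08). In BM macrophages it was 8.73 ± 0.52 at day 3 and 8.51 ± 0.52 at day 12 (adjusted p = 1.2e-10 and 2.2e-10). Between days 3 and 12 the change was 0.00, with a 95% interval of -0.62 to 0.63, in iPSC macrophages and -0.22, with an interval of -0.85 to 0.41, in BM macrophages.

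Sparc encodes a secreted collagen-binding protein that microglia express in mice and that fibroblasts, endothelial cells and astrocytes also make. It is on chromosome 11 at 55394500 to 55420080 on the minus strand (ENSMUSG00000018593.12). Its promoter is shown because Sparc rose in both sources. The window is chr11:55420031-55420330 (RefSeq, GRCm38.p6), and capitals mark the SMAD element on the other strand, written TGTCTG here, at -36 to -31 and 14 to 19 from the start site.
Sparc: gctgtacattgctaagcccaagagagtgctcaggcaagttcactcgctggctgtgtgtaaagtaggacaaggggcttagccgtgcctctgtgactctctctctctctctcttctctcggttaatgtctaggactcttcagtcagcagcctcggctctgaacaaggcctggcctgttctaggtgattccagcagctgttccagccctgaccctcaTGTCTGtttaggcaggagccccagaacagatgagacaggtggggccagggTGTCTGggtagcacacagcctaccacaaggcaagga

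Sparc rose in both sources by day 3 and again between days 3 and 12. In iPSC macrophages it had 3.61, 3.72 and 2.36 CPM at day 0, 11, 18.2 and 19.5 CPM at day 3, 147, 42.9 and 176 CPM at day 6, and 90.1, 48.7 and 106 CPM at day 12. In BM macrophages it had 0, 1.86 and 0.261 CPM at day 0, 13, 9.5 and 12.9 CPM at day 3, 47.2, 44.9 and 65.8 CPM at day 6, and 95.8, 96.3 and 80.7 CPM at day 12. The BM groups did not overlap at any pair of days, and in iPSC macrophages only days 6 and 12 did. Its log2 change at day 3 was 2.32 ± 0.52 SE in iPSC macrophages (adjusted p = 0.0027) and 3.97 ± 0.65 in BM macrophages (adjusted p = 0.00013). At day 12 it was 4.65 ± 0.54 in iPSC macrophages (adjusted p = 1.8e-06) and 6.92 ± 0.65 in BM macrophages (adjusted p = 1.1e-07). BM day 0 replicate 2 holds 16 of the 18 BM day 0 counts. Without it the fitted BM changes were 6.40 in place of 3.97 at day 3, 8.54 in place of 6.13 at day 6 and 9.32 in place of 6.92 at day 12.

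Genes of fibroblasts moved with Sparc. The summed level of 12 fibroblast and mesenchymal genes was 8.65 to 42 CPM at iPSC day 0, 64 to 148 CPM at day 3, 507 to 946 CPM at day 6 and 530 to 720 CPM at day 12. The BM sum was 1.56 to 22 CPM at day 0, 37.1 to 49.2 CPM at day 3, 55 to 84.4 CPM at day 6 and 172 to 292 CPM at day 12. At day 12 against day 0, 7 of the 11 genes of this list that were tested rose in iPSC macrophages and 9 of 11 in BM macrophages, and none fell. The collagen genes Col1a1 and Col1a2 stood at 113 ± 50.1 and 73.7 ± 18.3 CPM at iPSC day 12, and at 4.06 ± 4.87 and 1.15 ± 0.917 CPM at iPSC day 0 (SD, n = 3 each). Thy1 had no count in the day 0 groups of both sources or in any BM group.

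Among the iPSC day 6 libraries, replicate 2 had the lowest Sparc (42.9 CPM) and the lowest fibroblast sum (507 CPM), against 147 and 176 CPM of Sparc at sums of 863 and 946 CPM. Among the iPSC day 12 libraries replicate 2 was again lowest in both, with 48.7 and 530 CPM. Among the BM day 12 libraries the order was different, since replicate 2 had the highest Sparc (96.3 CPM) and the lowest fibroblast sum (172 CPM). In the 3 BM day 6 libraries Sparc had 47.2, 44.9 and 65.8 CPM beside 7.45, 5.44 and 10.1 CPM of Col1a1 and sums of 55, 59.8 and 84.4 CPM. Sparc was 0.085 to 0.19 of the list sum in the iPSC day 6 libraries and 0.75 to 0.86 of it in the BM day 6 libraries. Olfml3, by comparison, had 192 to 244 CPM in the iPSC day 6 libraries and 123 to 138 CPM in the BM day 6 libraries. The part of fibroblast RNA in the Sparc and Olfml3 values was not tested.

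**Figure D3:**
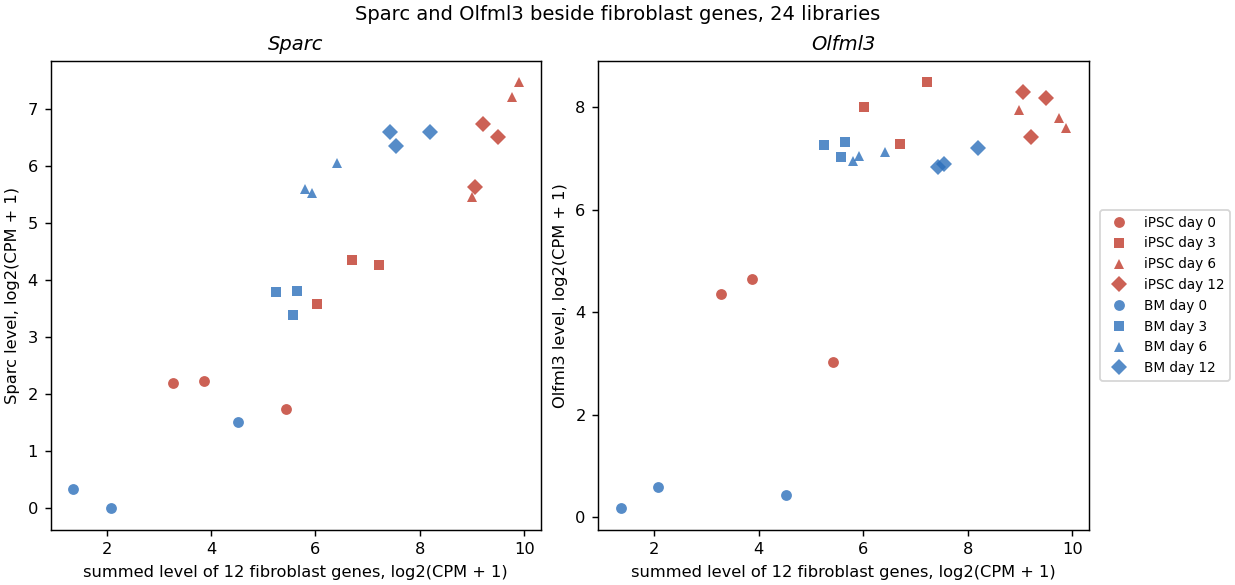
Level of Sparc (left) and Olfml3 (right) on a log2(CPM + 1) scale (vertical) against the summed level of 12 fibroblast genes on the same scale (horizontal) in the 24 libraries, iPSC in red, BM in blue and days by marker shape. Sparc climbs with the fibroblast sum across the days in both sources, while Olfml3 is near its full level at day 3, when the sum is 37.1 to 148 CPM.

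Counted over the set, most members rose in both sources. In iPSC macrophages 8 of 9 rose at day 3, 7 at day 6 and 6 at day 12, and none fell. Of all 15000 genes tested, 11.2% rose at iPSC day 3, 14.3% at day 6 and 14% at day 12, and 10.7% fell at day 12. In BM macrophages 5 of 9 rose at day 3 (11.9% of all genes), 6 at day 6 (12.7%) and 6 at day 12 (14.7%). Siglech alone fell, at BM day 6, a call in part set by the filter. At BM day 6 6.89% of all genes fell, and no member fell at BM day 12, where 9.08% did. The 6 that rose at day 12 were P2ry12, P2ry13, Tmem119, Fcrls, Olfml3 and Sparc in each source. The median log2 change of the 9 genes at day 12 was 3.36 in iPSC macrophages and 2.72 in BM macrophages, against 0.04 over all tested genes in each. The comparisons of a source share their day 0 libraries.

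Some members rose further after day 3. From day 3 to day 12, Tmem119 and Sparc rose in iPSC macrophages (2 of 9, against 4.07% of all genes) and P2ry12, Tmem119, Fcrls and Sparc in BM macrophages (4 of 9, against 4.2%). P2ry13 missed the threshold in BM macrophages, with 0.94 ± 0.29 (adjusted p = 0.05), and was called with RLE scaling factors (adjusted p = 0.044) and by DESeq2 (adjusted p = 0.015). Gpr34 was not called, with -1.64 ± 0.53 in iPSC macrophages (adjusted p = 0.06) and 1.56 ± 0.53 in BM macrophages (adjusted p = 0.078). DESeq2 called it in both, in these opposite directions (adjusted p = 0.023 and 0.033). In iPSC macrophages DESeq2 also called Fcrls upwards (adjusted p = 0.018, main fit 0.055) and Siglech downwards (adjusted p = 0.04, main fit 0.066). Day 6 against day 3 gave 1 call in iPSC macrophages, Sparc with 2.91 ± 0.47 (1.06% of all genes rose), and 2 in BM macrophages, Fcrls with 1.47 ± 0.26 and Sparc with 2.16 ± 0.47 (0.413% rose). In BM macrophages P2ry12 missed the threshold from day 3 to day 6, with 0.94 ± 0.26 (adjusted p = 0.093), and DESeq2 called it (adjusted p = 0.024). With only the BM day 3 and day 6 libraries fitted, P2ry12 (adjusted p = 0.00023), P2ry13 (0.60, adjusted p = 0.0069) and Gpr34 (1.38, adjusted p = 2.9e-06) were called besides. The BM call for Sparc was lost without any of its 6 libraries, with adjusted p from 0.063 to 0.19. The iPSC call for Sparc had an adjusted p of 0.12 when only the groups compared were fitted. Day 12 against day 6 gave no call for a member in either source. Of all genes, 1.24% were called in either direction in iPSC macrophages and 0.52% in BM macrophages. Unadjusted p was below 0.05 for 2 of 9 members in each source, a looser threshold for which no share of all genes is given. DESeq2 called Tmem119 in that step in both sources, with log2 changes of 1.44 in iPSC macrophages (adjusted p = 0.003) and 1.43 in BM macrophages (adjusted p = 0.0036). With only the BM day 6 and day 12 libraries fitted, Tmem119 (1.45, adjusted p = 1.3e-05), Fcrls (0.49, adjusted p = 0.0014) and Sparc (0.80, adjusted p = 0.007) were called. The shares of all genes given for these steps are of the main fit, so calls of the other fits cannot be set beside them.

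**Figure D4:**
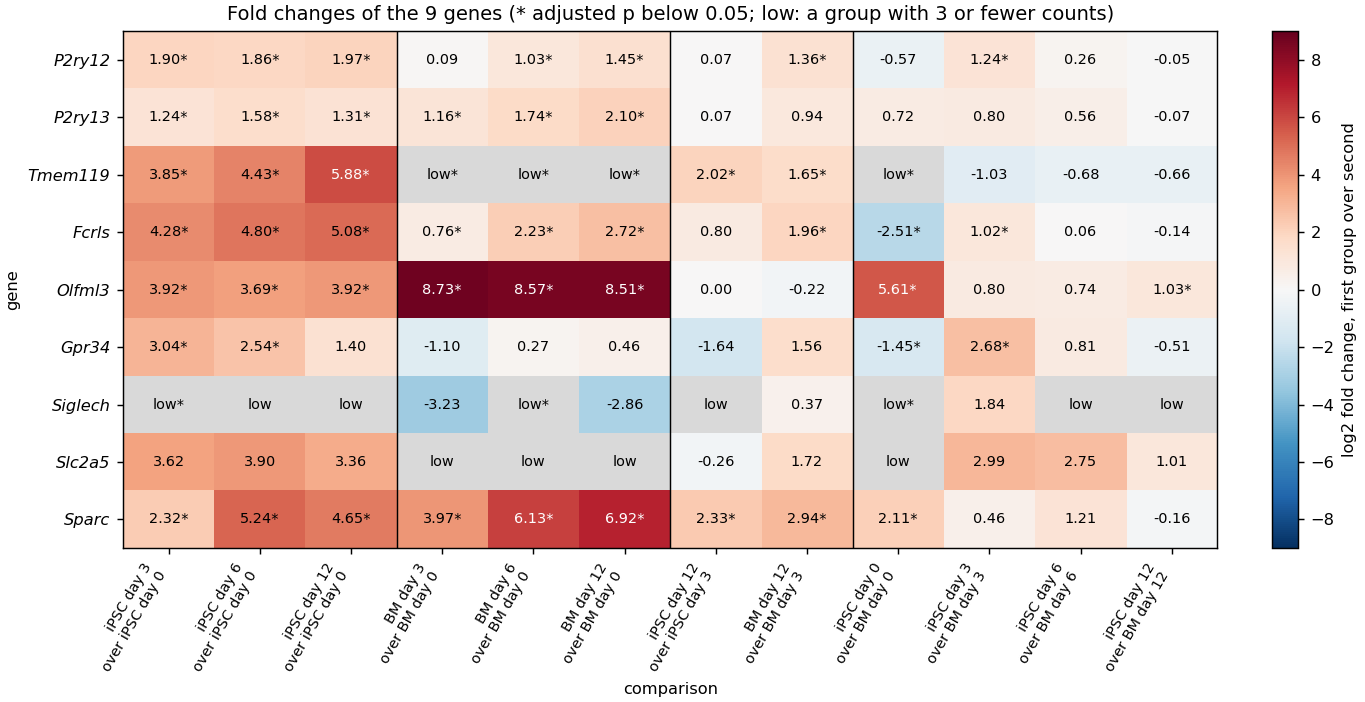
Log2 fold change, first group over second (colour and number), of the 9 genes (rows) in 12 comparisons (columns), 6 against day 0, 2 of day 12 over day 3 and 4 of iPSC over BM macrophages. An asterisk marks an adjusted p below 0.05, and grey cells with "low" have a group with 3 or fewer counts, for which no fitted fold is shown. Olfml3 in BM macrophages holds the highest printed value, 8.73 at day 3.

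Before co-culture 6 of the 9 members differed between the sources. At day 0, Olfml3 was higher in iPSC macrophages than in BM macrophages, with a log2 difference of 5.61 ± 0.54 SE (adjusted p = 4.3e-08), as was Sparc, with 2.11 ± 0.72 (adjusted p = 0.026). Tmem119 was also higher (adjusted p = 0.0037), with 46 counts in the iPSC day 0 libraries and 2 in the BM day 0 libraries, a scaled ratio of 20 with an exact 95% interval of 5.24 to 170. Fcrls was lower in iPSC macrophages, by 2.51 ± 0.27 (adjusted p = 1.9e-07), and so was Gpr34, with -1.45 ± 0.53 (adjusted p = 0.038). Siglech was at least 29.8-fold lower in iPSC macrophages than at BM day 0, a group through which it passed the filter. These 3 higher and 3 lower members stand beside 18.9% of all genes higher and 17.1% lower.

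Of these day 0 calls, those of Gpr34 and Sparc lay near the threshold and were lost in several fits with 1 library left out. The Gpr34 call was lost without iPSC day 0 replicate 2 or 3 or any BM day 0 replicate, with adjusted p from 0.073 to 0.15. It was also lost without scaling factors, where the difference was -1.37 (adjusted p = 0.057). The Sparc call was lost without iPSC day 0 replicate 1 or 2 or BM day 0 replicate 1 or 3, with adjusted p from 0.067 to 0.11. Without BM day 0 replicate 2 the fitted Sparc difference was 4.53. For Tmem119 the fitted difference was 3.01 (adjusted p = 0.04) without iPSC day 0 replicate 3, in place of 4.11.

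At day 3 P2ry12 (1.24 ± 0.26, adjusted p = 0.0011), Fcrls (1.02 ± 0.26, adjusted p = 0.0066) and Gpr34 (2.68 ± 0.55, adjusted p = 0.0014) were higher in iPSC macrophages than in BM macrophages, which is 3 of 9 members against 8.94% of all genes. DESeq2 added P2ry13 (0.79, adjusted p = 0.037) and Olfml3 (0.79, adjusted p = 0.049) on the iPSC side and Tmem119 (-1.04, adjusted p = 0.016) on the BM side. At day 6 no member was called, where 13.2% of all genes were called in either direction. Unadjusted p was below 0.05 for 2 of 9 members, a looser threshold than that of this share. DESeq2 called Sparc (1.22, adjusted p = 0.024). At day 12 Olfml3 alone was higher in iPSC macrophages, with 257 ± 76.1 CPM at iPSC day 12 and 126 ± 18.1 CPM at BM day 12 (SD, n = 3 each). Its log2 difference was 1.03 ± 0.30 (adjusted p = 0.034), where 5.03% of all genes were higher. That call was lost without scaling factors (0.79, adjusted p = 0.098) and without iPSC day 12 replicate 1 or 2 or any BM day 12 replicate, with adjusted p from 0.058 to 0.13.

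For the other members with enough counts, the day 12 difference between sources was not called, and each 95% interval included 0. It was -0.05 (95% interval -0.58 to 0.47) for P2ry12, -0.07 (-0.67 to 0.54) for P2ry13 and -0.14 (-0.67 to 0.38) for Fcrls. It was -0.16 (-1.06 to 0.75) for Sparc, -0.51 (-1.59 to 0.56) for Gpr34 and -0.66 (-1.43 to 0.11) for Tmem119. For Tmem119 every iPSC day 12 library, at 62.8 to 135 CPM, was below every BM day 12 library, at 144 to 162 CPM.

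**Figure D5:**
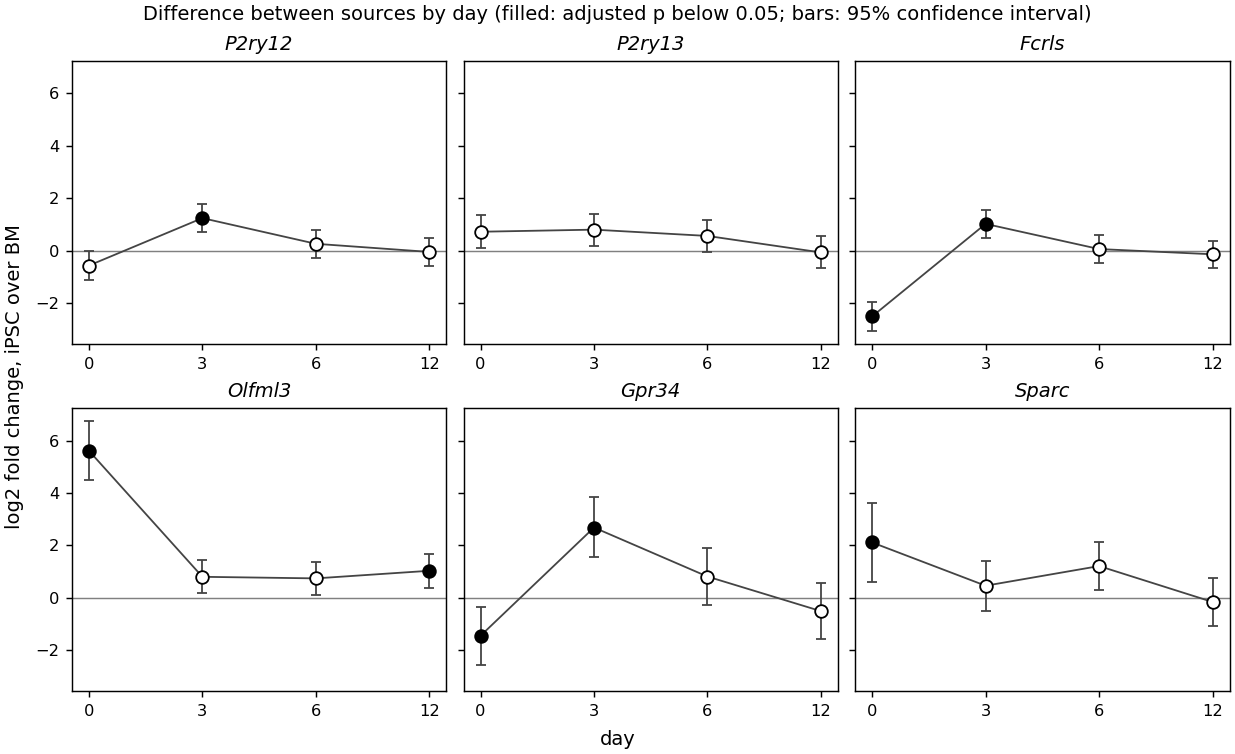
Log2 fold change of iPSC over BM macrophages (vertical) by day (horizontal) for 6 genes, with 95% confidence intervals from the edgeR fit and filled points where the adjusted p is below 0.05. Fcrls moves to -0.14 at day 12, against -2.51 at day 0, and Olfml3 to 1.03, against 5.61.

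The changes themselves differed between sources for several members. At day 3, 4 members changed more upwards in iPSC macrophages (P2ry12, Fcrls, Gpr34 and Siglech) and 2 more upwards in BM macrophages (Olfml3 and Tmem119), where 9.03% and 11.5% of all genes did so. At day 6 these were Fcrls, Gpr34 and Siglech against Olfml3 and Tmem119, beside 8.62% and 11.1% of all genes. At day 12 Fcrls changed more in iPSC macrophages and Olfml3 and Tmem119 more in BM macrophages, beside 9.07% and 11% of all genes. The difference for Olfml3 at day 12 was -4.59 ± 0.66 SE (adjusted p = 2.8e-05), and its day 0 level in BM macrophages rested on 8 counts. For Tmem119 the adjusted p at day 12 was 0.0033, with 2 counts at BM day 0, and 0.024 without iPSC day 0 replicate 3. The Siglech difference at day 6, where iPSC day 0 and BM day 6 held no count, had an adjusted p of 0.08 without iPSC day 6 replicate 1. Sparc at day 12 did not pass, with -2.26 ± 0.84 (adjusted p = 0.064), and passed in DESeq2 with -2.30 (adjusted p = 0.0065) and without BM day 0 replicate 2 with -4.65 (adjusted p = 0.0051).

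Per length, Fcrls stood above the rest of the set in every group. In CPM per kilobase of exon it had 1534 at iPSC day 12 and 1694 at BM day 12. Gpr34 (67.9 and 97), P2ry13 (54.6 and 57.2), Tmem119 (42.5 and 67.3), Olfml3 (41.7 and 20.4), P2ry12 (34.8 and 36.2) and Sparc (24.3 and 27) had less in these groups, with the iPSC value given before the BM value. At BM day 12 Tmem119 stood above P2ry13, and Olfml3 below P2ry12 and Sparc. Siglech (0 and 0.128) and Slc2a5 (0.586 and 0.289) were lowest. At BM day 0 Fcrls stood at 258, Gpr34 at 70.5, P2ry13 at 13.3 and P2ry12 at 13.2, and all others under 1. These are levels, and no test was made between genes.

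When the 8 groups were ordered by mean level for each gene, 10 of the 63 neighbouring pairs differed at adjusted p below 0.05. For P2ry12 the order ran BM day 12, iPSC day 12, iPSC day 3, iPSC day 6, BM day 6, BM day 3, BM day 0 and iPSC day 0, and no neighbours differed. For P2ry13, Gpr34 and Slc2a5 no neighbours differed either, nor for Siglech. For Tmem119 iPSC day 3 differed from iPSC day 0, and iPSC day 0 from BM day 0. For Fcrls the lowest 4 groups, iPSC day 3, BM day 3, BM day 0 and iPSC day 0, each differed from the next. For Olfml3 BM day 12 differed from iPSC day 0, and iPSC day 0 from BM day 0. For Sparc BM day 6 differed from iPSC day 3, BM day 3 from iPSC day 0, and iPSC day 0 from BM day 0. These pairs were chosen by their order, so their tests describe it.

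Replicates of iPSC macrophages spread more widely than those of BM macrophages for several members. At day 12 the coefficient of variation was 86.3% for Gpr34 in iPSC libraries and 10.9% in BM libraries, 36% and 5.77% for P2ry12, and 29.6% and 5.56% for Fcrls. In the iPSC day 12 libraries, replicate 2 was lowest for P2ry12, P2ry13, Fcrls, Gpr34 and Sparc, while it was highest for Tmem119 and Olfml3. In the iPSC day 3 libraries, replicate 3 was lowest for P2ry12, P2ry13, Tmem119, Fcrls, Olfml3, Gpr34 and Slc2a5, and highest for Sparc. Across libraries, after group means were taken out, log2 levels of P2ry12 and P2ry13 correlated at Pearson r = 0.89 over the 12 iPSC libraries and 0.77 over the 12 BM libraries. P2ry12 and Gpr34 correlated at 0.73 and 0.16 in the same way, and Fcrls and Gpr34 at 0.83 and -0.17. These correlations describe libraries that share their scaling.

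Outside the set, the genes whose log2 CPM followed each member most closely over the 24 libraries were found among 10498 genes. Tgfbr2, a TGF-beta receptor subunit gene, was the closest for P2ry12 (Pearson r = 0.927) and for Fcrls (0.944). Cxcl14, a chemokine gene, and Cx3cr1, the fractalkine receptor gene, came first for P2ry13 (0.901 and 0.9). Igfbp5, which encodes an insulin-like growth factor binding protein, was closest to Tmem119 (0.939), Pald1 to Olfml3 (0.965) and Exoc4, an exocyst subunit gene, to Gpr34 (0.855). The imprinted RNA gene H19 (0.949), the ubiquitin ligase gene Nedd4 (0.94) and the collagen gene Col4a1 (0.934) were closest to Sparc. For Siglech and Slc2a5, at few counts, the closest were Ypel2 (0.867) and Nav3 (0.819). The 24 libraries share 8 groups, so these values are a description of group levels.

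The wider microglial programme was described by a list of further genes. Of 50 other microglia-enriched genes, all tested, 39 rose and 1 fell at iPSC day 12 (median log2 change 1.36), and 22 rose and 6 fell at BM day 12 (median 0.51). The median over all tested genes was 0.04 in each, and the difference between these counts was not tested. C1qa, a complement subunit gene, had 2952 ± 186 CPM at iPSC day 12, against 303 ± 53.9 CPM at iPSC day 0, and 2333 ± 465 CPM at BM day 12, against 298 ± 12.7 CPM at BM day 0 (SD, n = 3 each). Cx3cr1 had 910 ± 156 and 90.9 ± 37 CPM at iPSC days 12 and 0, and 1166 ± 76.9 and 1.29 ± 1.29 CPM at BM days 12 and 0. Pmepa1, a TGF-beta target gene, had 634 counts at iPSC day 12 and 1 at iPSC day 0, and 2986 counts at BM day 12 and 1 at BM day 0.

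Not every gene of that list followed. Selplg, an adhesion ligand gene, fell at iPSC day 12, by 0.57 ± 0.15 log2 units (adjusted p = 0.0056). At BM day 12 the falls with the lowest adjusted p were Entpd1 (-1.30 ± 0.20), Cd164 (-0.92 ± 0.16) and Ctsf (-0.88 ± 0.19), of which Ctsf rose in iPSC macrophages (1.40 ± 0.19, adjusted p = 4.6e-06). Sall1, the transcription factor gene, rose at iPSC day 12 (adjusted p = 0.0062) and was not called at BM day 12 (adjusted p = 0.13). Its level was 0, 4.26 and 4.35 CPM at iPSC day 12, with no count at iPSC day 0. It had 0.802, 1.09 and 0.09 CPM at BM day 12 and 1 count at BM day 0. Of 15 general macrophage genes, 9 rose and none fell at iPSC day 12, and 4 rose and 2 fell at BM day 12. Of 10 border-associated macrophage genes, 7 rose and none fell at iPSC day 12, and 2 rose and 2 fell at BM day 12. Among these, Cbr2 had 8.15 ± 1.87 CPM at BM day 12 and 79.9 ± 12.9 CPM at BM day 0, and Mrc1 had 1427 ± 931 CPM at iPSC day 12 and 404 ± 109 CPM at iPSC day 0.

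Some markers of other brain cells rose, and the summed level of the astrocyte genes overlapped between days 12 and 0 in both sources. Aldoc was a large part of that sum at day 0, with means of 104 CPM in iPSC and 78 CPM in BM macrophages. It fell to 50.7 and 36.9 CPM at day 12. Slc1a3 rose, from 0.547 to 12.8 CPM in iPSC and from 0.275 to 13.2 CPM in BM macrophages. The overlap of the sums therefore does not show that astrocyte RNA stayed level. Of the tested genes of each list, 6 of 8 astrocyte genes, 6 of 8 neuron genes and 6 of 9 oligodendrocyte lineage genes rose at iPSC day 12, and 6 of 8, 5 of 8 and 3 of 9 rose at BM day 12. Falls in these lists were 2 astrocyte genes at iPSC day 12 and 1 at BM day 12. Summed levels at day 12 were 120 to 152 CPM for 10 astrocyte genes and 10.4 to 25.9 CPM for 12 neuron genes in iPSC libraries, and 86.4 to 103 CPM and 19.3 to 27 CPM in BM libraries. At day 0 they were 114 to 190 CPM and 1.72 to 2.95 CPM in iPSC libraries, and 87.1 to 107 CPM and 0 to 1.62 CPM in BM libraries. Of 8 endothelial and mural genes tested, 1 rose and 2 fell at iPSC day 12, and 2 rose at BM day 12. Of 7 plasmacytoid dendritic cell genes tested, 1 rose and 3 fell at iPSC day 12, and 2 rose and 1 fell at BM day 12. Of the 8 genes tested that lie beside or around members, 3 rose and 2 fell at iPSC day 12, and 1 rose and 1 fell at BM day 12. Of 8 monocyte genes tested, 2 rose in each source, Fn1 and Vcan, and none fell. Fn1 is also counted among the fibroblast genes. The median log2 change of the monocyte list was -0.90 in iPSC macrophages and 1.38 in BM macrophages. The part of these cells in the members' values was not tested.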

How the data were processed

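The deposited table holds whole-number counts per gene, which the authors made with featureCounts 1.5.0-p1 per the file headers (paired reads, exons, by gene ID, with no strand, multi-mapping or overlap option set). Reads came from SMART-seq v2 libraries per the labels' protocols and were aligned with STAR to mm10 (GRCm38) with GENCODE M9, per the submitters' processing notes. Genes were kept by edgeR's filterByExpr (minimum count 10, total 15), which left 15000 of 47643. One model over the 8 groups was fitted with edgeR 4.0.16 in R 4.3.3 (TMM scaling, robust quasi-likelihood test, Benjamini-Hochberg adjustment, threshold 0.05) and was tested on simulated data. Its common biological coefficient of variation was 0.338. Fold changes of groups without counts were bounded by a floor of 3 counts over the group. Intervals are at 95%, and exact ratio intervals and floors cover counting error only. DESeq2 1.42.0, RLE or no scaling factors, no filter, fits to fewer libraries, a replicate block and leaving out each library were alternatives. Tables and figures were made with Python 3.11.15, pandas 2.3.3 and matplotlib 3.10.9. The design text calls the replicates independent without naming cultures or animals, so p-values measure the spread between these samples, which may be in part technical. The members, the 12 gene lists and the tests were chosen with earlier results of these data known. Genes named from the lists were those with the lowest adjusted p in each direction at day 12, plus a fixed set of markers, and genes like a member were the 3 with the highest Pearson r among genes averaging at least 5 CPM. Promoter entries matched 7 of 9 members.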

Additional observations from a re-analysis of the deposited data

Results flagged for a closer look

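The change from day 0 differed between iPSC and BM macrophages for 6 of the 9 genes, by the interaction term of the edgeR fit with Benjamini-Hochberg adjustment. Over all tested genes, 9.03% changed more upwards in iPSC macrophages and 11.5% more upwards in BM macrophages at day 3, 8.62% and 11.1% at day 6, and 9.07% and 11% at day 12. All values are the iPSC change minus the BM change. For Fcrls the log2 difference was 3.53 at day 3, 2.56 at day 6 and 2.36 at day 12. For Olfml3 it was -4.81 at day 3, -4.88 at day 6 and -4.59 at day 12, with 8 counts in the BM day 0 group. P2ry12 differed at day 3, by 1.81. Gpr34 differed by 4.13 at day 3 and 2.27 at day 6. Tmem119, with 2 counts in the BM day 0 group, changed more in BM macrophages, with adjusted p-values of 0.0015 at day 3, 0.0034 at day 6 and 0.0033 at day 12. Siglech, with no count in the iPSC day 0 group, changed more upwards in iPSC macrophages, with adjusted p-values of 0.012 at day 3 and 0.012 at day 6. The comparisons at the 3 days share their day 0 libraries.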

How the results depend on the processing

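No change of a member turned its direction while called, over 1098 values from the alternatives other than leaving out a library. Among these values 9 lost a call of the main fit and 80 gained one. Among 1188 values with 1 library left out, 45 lost and 18 gained one. The main fit made 72 calls, and each is counted once per alternative, so these are not parts of the 72. Counts of called members moved by over 1.5 times in the following cases. For iPSC day 12 against day 3 (2 called) there were 5 without the low-count filter, 1 with the 12 iPSC libraries alone and 5 by DESeq2. For iPSC against BM at day 3 (3 called) there were 6 without the filter and 6 by DESeq2. At day 6 (0 called) there were 4 without the filter, 1 with only the groups compared and 1 by DESeq2, and at day 12 (1 called) 0 without scaling factors. For the interaction at day 12 (3 called) there were 6 without the filter. For iPSC day 6 against day 3 (1 called) there were 2 without the filter and 0 in the fits to fewer libraries, and for iPSC day 12 against day 6 (0 called) 2 without the filter and 1 by DESeq2. For BM day 6 against day 3 (2 called) there were 4 without the filter and 5 in each fit to fewer libraries. For BM day 12 against day 6 (0 called) there were 1 without the filter, 3 with only the groups compared, 2 with the 12 BM libraries and 1 by DESeq2. Without 1 library, counts against day 0 ran from 7 to 7, 7 to 8 and 6 to 7 at iPSC days 3, 6 and 12, and from 4 to 4, 6 to 7 and 6 to 8 at BM days 3, 6 and 12. For day 12 against day 3 they ran from 2 to 3 in iPSC and 4 to 4 in BM macrophages. Between sources they ran from 4 to 6, 3 to 5, 0 to 1 and 0 to 1 at days 0, 3, 6 and 12, and for the interactions from 6 to 7, 4 to 5 and 3 to 4 at days 3, 6 and 12. In the other steps they ran from 1 to 1 at iPSC day 6 against day 3, 1 to 1 at BM day 6 against day 3, 0 to 0 at BM day 12 against day 6 and 0 to 2 at iPSC day 12 against day 6. The cause was not tested.

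The labels do not say that samples with the same replicate number share a culture or a day. Deviations of same-numbered libraries correlated at -0.0545 to 0.161 in iPSC macrophages, where 4 of 18 same-numbered pairs and 1 of 36 other pairs were over 0.1, and at -0.0209 to 0.0397 in BM macrophages. The medians in iPSC macrophages were 0.0317 for same-numbered pairs and -0.0168 for other pairs. The main fit did not take the numbers as pairs, because the labels do not state a pairing. Whether same-numbered iPSC libraries share a culture or a day was not tested. With the replicate block 4 member calls changed. Siglech was lost at iPSC day 3 (adjusted p = 0.061), which left 7 called, and Gpr34 was lost in the interaction at day 6 (adjusted p = 0.067), which left 4. Fcrls was gained for iPSC day 12 against day 3 (adjusted p = 0.028), which made 3, and P2ry13 for BM day 12 against day 3 (adjusted p = 0.038), which made 5.

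Without scaling factors the median log2 change of all tested genes moved by -0.30 to 0.17, and the split of all calls moved by over 10 percentage points in the comparisons named here. Higher calls were then 37.7% of calls at iPSC day 3 against day 0 (58% with scaling), 45.7% at iPSC day 12 (56.6%), 77.6% at BM day 6 (64.7%) and 76.2% at BM day 12 (61.8%). For day 12 against day 3 they were 57.1% in iPSC (45.8%) and 61% in BM macrophages (49.7%). For iPSC against BM they were 31.7%, 40.5% and 25.2% at days 3, 6 and 12 (50.1%, 52.9% and 51.5%), and for the interactions 27.4%, 30.6% and 25.5% (44%, 43.8% and 45.2%). For iPSC day 6 against day 3 they were 78.5% (46.8%), and for iPSC day 12 against day 6 46.7% (59.7%). Counts over all genes moved by over 1.5 times mainly in fits to fewer libraries. In these, iPSC day 12 against day 0 gave 2106 with only the groups compared and 2392 with the 12 iPSC libraries, in place of 3706, and BM day 12 against day 3 gave 2751 and 2795, in place of 1267. The steps from day 3 to 6 and from day 6 to 12 rest on few calls, with 2 to 697 and 0 to 640 in iPSC macrophages (340 and 186) and 126 to 1217 and 52 to 1041 in BM macrophages (127 and 78) over the alternatives with all libraries of a group.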
